A study of Homo sapiens with 2 samples.

Results

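Transcript levels of membrane trafficking genes were compared between S2-013 cells treated with a MEK inhibitor and untreated S2-013 cells. The genes were chosen by symbol in the platform's probe annotation. They comprised symbols that start with RAB or SEC or ARF or STX and a digit, with SNX, VPS, VAMP, TRAPPC or ARL, with a COPI subunit name, or with AP, a digit and a letter, and NBEA was added by name. Antisense symbols were left out. The rule found 155 genes among 13763 named genes, read by 162 probe sets. S2-013 is an established human pancreatic cancer line. Cells of both samples had HOXB7, a homeobox transcription factor, knocked down and had then received a plasmid that re-expresses HOXB7. MEK is the kinase that activates ERK. With a single array per condition (2 in all), the values carry no replicate error and conditions could not be tested against each other. The sources used here do not give the inhibitor's name, dose or exposure time, the knockdown method or the number of clones.

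Cargo moves between membrane compartments in vesicles and tubules. Small GTPases of the Rab, Arf and Arl families mark each compartment and recruit coats, which bud vesicles, and tethers, which catch them. SNARE proteins (syntaxins, VAMPs and their partners) then fuse the membranes. Sorting nexins and retromer retrieve cargo from endosomes, ESCRT complexes sort cargo into multivesicular bodies, and the HOPS and CORVET tethers serve fusion at endosomes and lysosomes.

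Few Rab genes were among the members. RAB6D was the only Rab GTPase symbol found, and the other RAB symbols were 10 genes for Rab partners and RAB30-DT, a non-coding transcript. No COPI coat subunit or adaptor complex subunit was among the members. The COPI subunit gene ARCN1, whose symbol the rule does not cover, was read only in a pathway list described below (-0.08). The prefixes brought in COPG2IT1, a non-coding transcript, and AP1AR, a protein that binds the AP-1 adaptor. Some members are not trafficking genes by function, among them the chromatin protein gene VPS72 and the signal peptidase genes SEC11A and SEC11C. By family there were 34 VPS genes, 26 sorting nexins, 19 SEC genes, 19 ARF and ARL genes, 15 TRAPP subunits, 14 syntaxins, 7 VAMPs and 10 Rab partners. The remaining 11 symbols were NBEA, RAB6D, AP1AR, 6 non-coding transcripts and pseudogenes, and 2 read-through transcripts.

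Levels are log2 signals as the authors deposited them, and a difference is the log2 level with the inhibitor minus that without it. The median over named genes of the mean of both arrays, 4.78, is called the floor. Of the 155 members, 123 had a mean at or above the floor, and 32 were dimmer. HOXB7 read 5.84 without and 5.85 with the inhibitor. DUSP6 and SPRY4, feedback genes of the ERK pathway, were 2.39-fold and 4.44-fold lower with the inhibitor. Of 9 named epithelial markers 8 reached the floor, and 1 (CD68) of 10 named fibroblast, endothelial, leukocyte, acinar and endocrine markers did. Where probe sets of the same gene were both at or above the floor, the median disagreement of their differences was 0.15 and the 95th percentile 0.51, over 415 pairs from 140 genes. This is an error of the probes and leaves out how cultures vary.

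Few membrane trafficking genes differed much between the arrays, and the majority were slightly higher with the inhibitor. Of the 155 genes, 102 (65.8%) had a difference above 0, against 50.8% of all named genes. The median difference was 0.07, against 0.01 over all named genes. With the trend of difference on level over all named genes subtracted by loess, 94 members were higher (60.6%), against 49.6% of all named genes, and the 8 genes that changed sign (ARLN, RAB11FIP5, RAB5IF, SNX4, STX12, STX3, VAMP8 and VPS72) had differences of 0.03 or less. Of the single differences, those of 74 members (47.7%) were smaller than the median probe set disagreement of 0.15, against 45.6% of all named genes. Only NBEA was at least 2-fold higher, 0.645% of members, against 0.407% of all named genes. ARL14 alone was at least 2-fold lower, 0.645% of members, against 0.625% of all named genes. Past 1.5-fold there were 3 members higher (1.94%) and 4 lower (2.58%), against 3.2% and 2.59% of all named genes. These shares are near the background. In whole cultures, fewer cells with a transcript and less of it per cell cannot be told apart. Members that passed 1.5-fold were NBEA, SNX18 and STX8 upwards and ARL14, SNX32, SNX20 and STX1A downwards. The plot of levels on both arrays shows these 7 genes beside the other members.

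**Figure D1:**
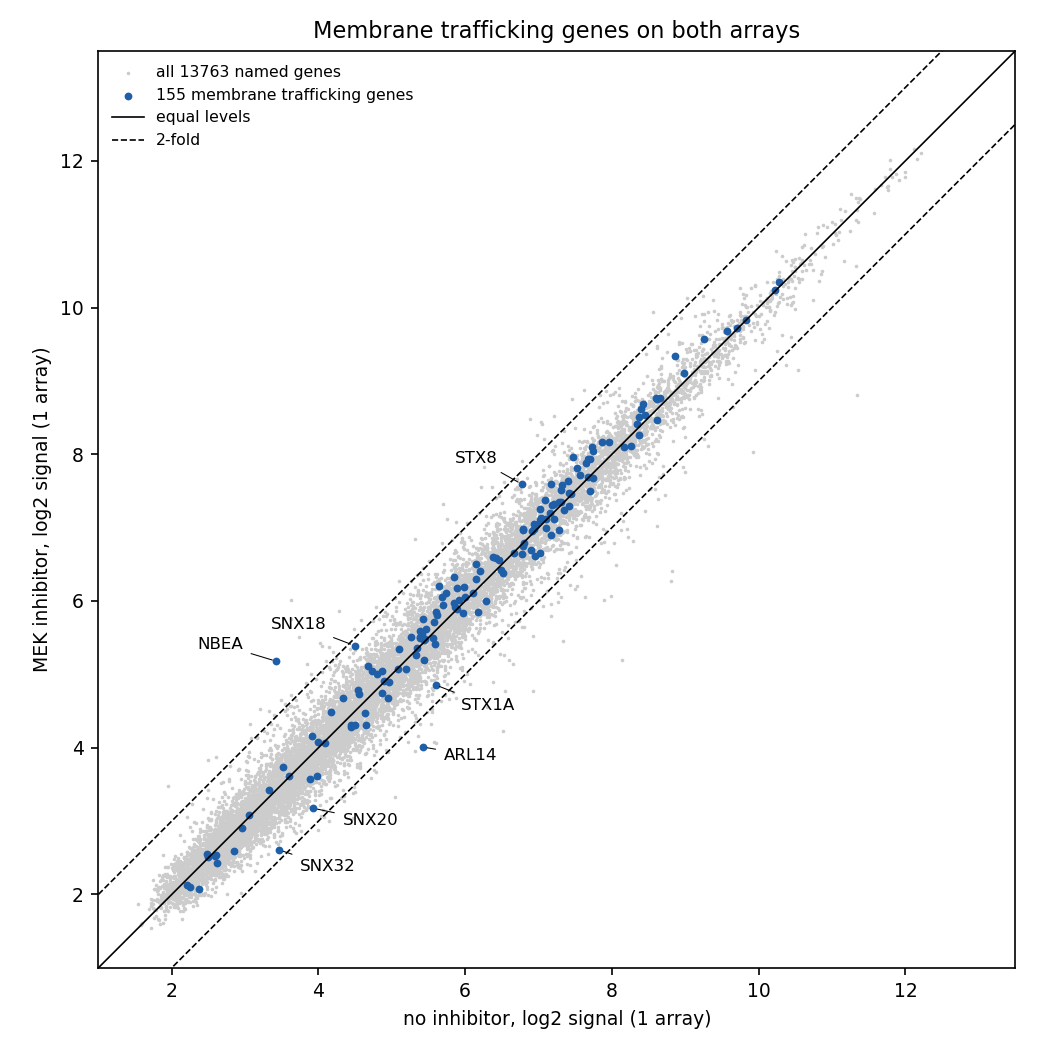
Log2 signal of each gene without the inhibitor (x axis) and with it (y axis), 1 array each, for all 13763 named genes (grey) and 155 membrane trafficking genes (blue). The solid line marks equal levels and the dashed lines 2-fold, and of the members NBEA lies above and ARL14 below the dashed lines.

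NBEA encodes neurobeachin, a large BEACH domain protein that anchors protein kinase A and takes part in receptor trafficking. Its probe set (16773967) read 3.43 without and 5.18 with the inhibitor, a difference of 1.75 or 3.37-fold higher. Only 3 of the 13763 named genes had a higher difference. The level without the inhibitor lay below the floor, so the fold starts from a dim signal. NBEA had been added to the group with its difference known, so its place in the count is no finding. Among the other BEACH domain genes, its paralogue NBEAL1 read 5.38 without and 5.92 with the inhibitor (0.54), and WDFY3, a scaffold of selective autophagy, had a difference of 0.17. WDR81, LYST and NBEAL2 differed by 0.02 or less in either direction. NSMAF, an adaptor of the TNF receptor, had a difference of -0.11, and the dim WDFY4 had -0.07. The large difference of NBEA was therefore not shared by these relatives.

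ARL14 encodes an Arf-like GTPase that was described on MHC class II vesicles. It read 5.43 without and 4.01 with the inhibitor, a difference of -1.42 or 2.67-fold lower, and 22 named genes had a lower difference. It was above the floor without the inhibitor only. Its mean of 4.72 was just below the floor, so ARL14, SNX20 and SNX32 are named here after their values were seen. The other Arf-like GTPases did not share this difference. ARL3, which releases lipidated cargo in cilia, had the highest value of this group (7.17 without and 7.60 with the inhibitor, 0.42). ARL1, which recruits golgins to the trans-Golgi network, read 5.43 and 5.19 (-0.24). ARL14EP, an ARL14 effector, had a difference of -0.06. The other 5 Arf-like GTPase genes, ARL6, ARL9, ARL11, ARL15 and ARL16, lay between -0.08 and 0.10.

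To show the sequences behind these genes, the 250 bases before the annotated start were taken from RefSeq's GRCh38.p14 windows, which 125 of the 155 members had. They are printed for NBEA, for STX8, the SNARE with the highest difference, for 4 genes of the HOPS and CORVET tethers, which were all higher, and for VPS37B, which was lower in both of its probe sets. ARL14, VPS18 and VPS33A were not in the table. The windows lie at chr13:34942020-34942269, plus strand (NBEA), chr17:9575821-9576070, minus strand (STX8), chr15:42208305-42208554, minus strand (VPS39), chr7:38909192-38909441, minus strand (VPS41), chr3:184811916-184812165, plus strand (VPS8), chr11:119067568-119067817, plus strand (VPS11) and chr12:122896125-122896374, minus strand (VPS37B). NBEA, VPS8 and VPS11 each had 2 windows, of which the first listed is shown. Each sequence runs 5′ to 3′ on the strand of the gene and ends at the base before the start. Capitals mark matches, on either strand, to short motifs. They are the E-box core CACGTG, the AP-1 site TGANTCA, the ETS site CCGGAAG, the cAMP response element TGACGTCA and the EGR1 site GCGTGGGCG. The E-box core is bound by MiT/TFE factors and by others.
NBEA: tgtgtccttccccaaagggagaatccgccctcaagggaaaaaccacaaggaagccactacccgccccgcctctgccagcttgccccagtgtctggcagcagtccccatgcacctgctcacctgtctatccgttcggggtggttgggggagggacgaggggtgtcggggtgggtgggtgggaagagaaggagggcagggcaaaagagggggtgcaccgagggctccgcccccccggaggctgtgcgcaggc
STX8: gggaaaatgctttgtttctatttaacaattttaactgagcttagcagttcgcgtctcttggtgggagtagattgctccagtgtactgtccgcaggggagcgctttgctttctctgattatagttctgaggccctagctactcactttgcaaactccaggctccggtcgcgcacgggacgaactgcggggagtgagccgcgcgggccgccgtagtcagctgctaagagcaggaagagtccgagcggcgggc
VPS39: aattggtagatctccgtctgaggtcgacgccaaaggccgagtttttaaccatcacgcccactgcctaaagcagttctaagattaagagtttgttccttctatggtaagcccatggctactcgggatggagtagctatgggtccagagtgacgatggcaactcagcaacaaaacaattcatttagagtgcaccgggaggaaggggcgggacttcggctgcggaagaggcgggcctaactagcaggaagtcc
VPS41: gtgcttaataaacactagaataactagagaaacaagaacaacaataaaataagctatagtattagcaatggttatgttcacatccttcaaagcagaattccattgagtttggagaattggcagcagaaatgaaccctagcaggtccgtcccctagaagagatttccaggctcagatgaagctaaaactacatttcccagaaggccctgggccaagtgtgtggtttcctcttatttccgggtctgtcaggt
VPS8: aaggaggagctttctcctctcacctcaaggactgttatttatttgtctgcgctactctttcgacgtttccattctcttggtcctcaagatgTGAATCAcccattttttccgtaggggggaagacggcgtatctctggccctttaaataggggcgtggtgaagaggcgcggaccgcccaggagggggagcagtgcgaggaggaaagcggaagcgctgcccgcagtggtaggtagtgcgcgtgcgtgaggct
VPS11: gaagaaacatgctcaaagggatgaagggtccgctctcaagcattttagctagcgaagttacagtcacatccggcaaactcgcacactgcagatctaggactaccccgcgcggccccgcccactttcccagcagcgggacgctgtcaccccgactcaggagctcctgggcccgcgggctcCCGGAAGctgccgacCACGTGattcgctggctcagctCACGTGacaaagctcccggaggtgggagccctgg
VPS37B: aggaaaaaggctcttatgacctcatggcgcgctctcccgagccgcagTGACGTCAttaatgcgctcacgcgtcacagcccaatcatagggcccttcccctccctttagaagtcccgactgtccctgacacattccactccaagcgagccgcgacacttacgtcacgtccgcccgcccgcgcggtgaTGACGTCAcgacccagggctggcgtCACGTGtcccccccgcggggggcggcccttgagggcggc

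The windows of NBEA, STX8, VPS39 and VPS41 held none of the 5 motifs. That of VPS8 held 1 AP-1 match, that of VPS11 held 2 E-box matches and 1 ETS match, and that of VPS37B held 1 E-box and 2 cAMP response element matches. No 2 matches overlapped in these windows. Over the first window of each gene, the E-box core was found in 12 of 125 members (9.60%) and in 6.49% of all 27305 genes. The ETS site was found in 23 members (18.4%, against 8.82% of all genes), and the AP-1 site in 4 (3.20%, against 6.60%). The cAMP response element was found in 6 members (4.80%, against 1.77%) and the EGR1 site in 2 (1.60%, against 0.710%). The 27305 genes are all those with a window and were not limited to the 13763 named genes used as background elsewhere. The members' windows were richer in G and C, with a median of 66.0% against 58.0% over all genes. The part of GC content or of this choice of genes in these counts was not tested. Of the 12 members with the E-box core, 4 were higher with the inhibitor and the median difference was -0.10, whereas 78 of 113 members without it were higher (median 0.08). With the ETS site 13 of 23 were higher (median 0.10), and without it 69 of 102 (median 0.06). With the cAMP response element 3 of 6 were higher (median -0.05), and without it 79 of 119 (median 0.08). With the AP-1 site 3 of 4 were higher and with the EGR1 site 2 of 2. A match is a description of these letters only, and the counts with an E-box, AP-1, cAMP response element or EGR1 match are small.

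The member genes of the HOPS and CORVET tethers were slightly higher with the inhibitor. These complexes share a core and bring endosomes, or endosomes and lysosomes, together before fusion. All 6 subunits among the members were higher with the inhibitor, though none reached 1.5-fold. Subunits of these complexes outside the members were not examined. The median difference was 0.25, against 0.02 over all named genes at or above the floor, of which 53.7% were higher. VPS39, a HOPS subunit, read 7.47 without and 7.97 with the inhibitor (0.50). VPS33A, the SNARE-binding subunit of the shared core, read 5.74 and 6.11 (0.37), and the HOPS subunit VPS41 read 7.74 and 8.04 (0.30). The CORVET subunit VPS8 had a difference of 0.20, and the core subunits VPS18 and VPS11 had 0.18 and 0.15. Each single difference was within the 0.51 that probe sets of 1 gene can disagree by. The grouping into complexes was made with the values known.

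Of the late endosomal SNAREs that work with HOPS, STX8, STX7, VTI1B and VAMP7 were also higher with the inhibitor, and VAMP8 had no settled direction. STX8 read 6.77 without and 7.59 with the inhibitor, a difference of 0.82 or 1.77-fold higher. This was beyond the 0.51 of the probe set pairs, which 8.17% of all named genes exceeded in either direction. STX7, the other syntaxin of this complex, read 7.52 and 7.82 (0.29), and VTI1B, its partner, 7.06 and 7.26 (0.20). VAMP7 had differences of 0.13 and 0.19 in its 2 probe sets, and VAMP8 read 7.45 and 7.46 (0.01, and -0.02 with the loess trend subtracted). VAMP8 thus differed least of these genes and STX8 most. VPS33B, a relative of VPS33A, and VPS45, which like it binds syntaxins, had differences of 0.13 and 0.09.

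**Figure D2:**
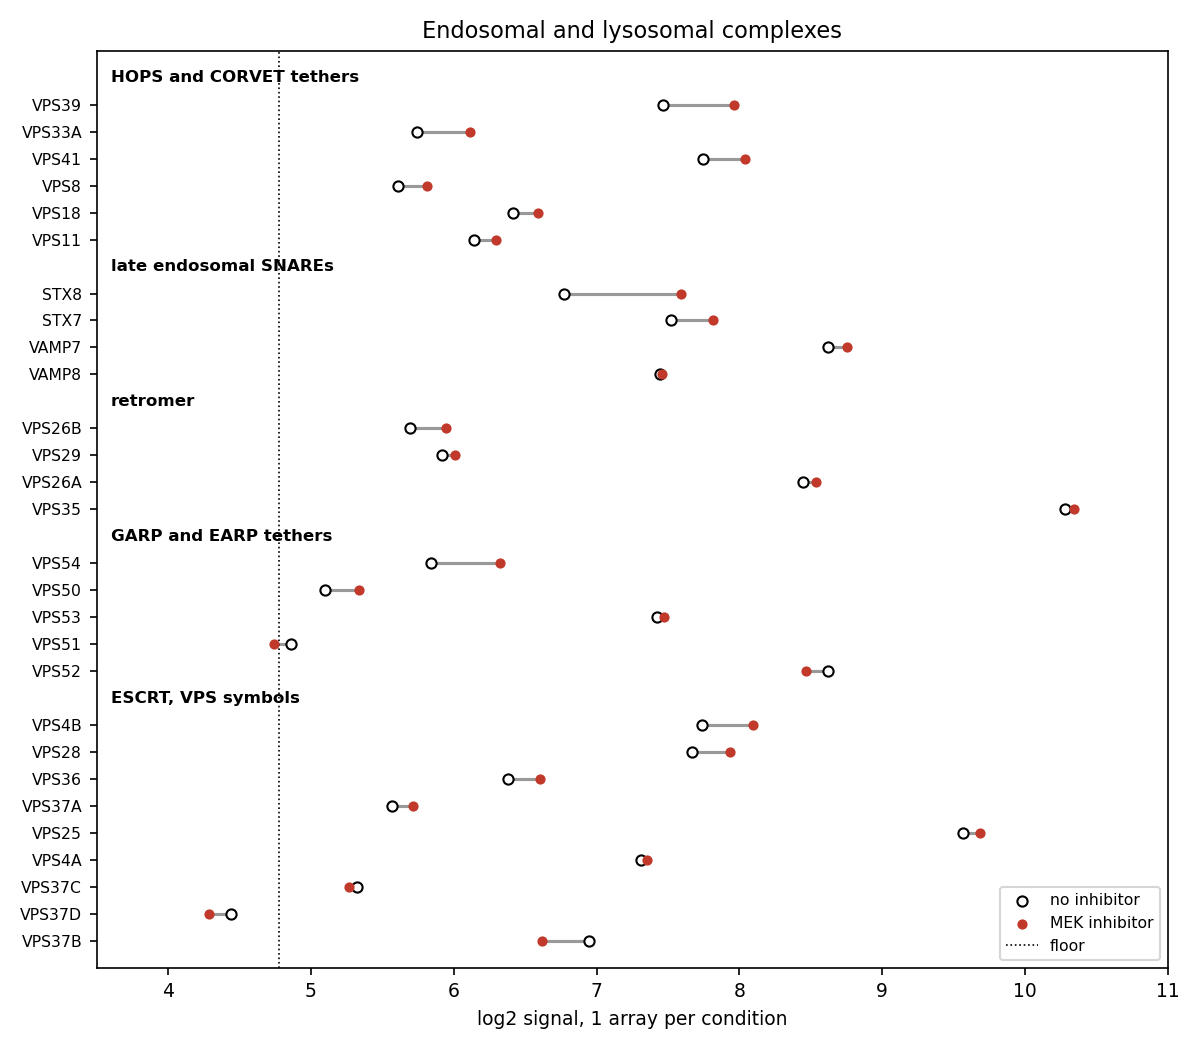
Log2 signal of each gene of 5 endosomal and lysosomal groups without the inhibitor (open circles) and with it (red circles), 1 array each, and the floor of 4.78 (dotted line). All 6 HOPS and CORVET genes, 4 late endosomal SNARE genes and 4 retromer genes lie to the right with the inhibitor, by 0.01 to 0.82 (VAMP8, at 0.01, turns to -0.02 with the loess trend subtracted), while the GARP, EARP and ESCRT genes lie on both sides.

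Retromer, which carries cargo from endosomes back to the Golgi and the plasma membrane, showed only small differences. VPS35, its scaffold, read 10.28 without and 10.34 with the inhibitor (0.06). VPS26A had a difference of 0.09, VPS29 of 0.10 and VPS26B of 0.25. In the related retriever complex VPS35L had a difference of 0.12 and VPS26C of 0.00. Of 5 subunits of the GARP and EARP tethers, which serve retrograde traffic from endosomes, 3 were higher. VPS54 read 5.84 without and 6.32 with the inhibitor (0.48) and VPS50, the EARP subunit, 5.10 and 5.34 (0.24), and VPS53 differed by 0.05. VPS52 had -0.15 in its brighter and -0.09 in its other probe set. The probe sets of VPS51 disagreed in sign, with -0.12 at a mean of 4.80 and 0.44 at a mean of 4.32. These differences were within the 0.51 of the probe set pairs too.

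Among the VPS genes of the ESCRT machinery 6 of 9 were higher. VPS4B, an ATPase that takes ESCRT-III filaments apart, read 7.74 without and 8.10 with the inhibitor (0.36), whereas its paralogue VPS4A differed by 0.05. The ESCRT-I subunit VPS28 had a difference of 0.27, and the ESCRT-II subunits VPS36 and VPS25 had 0.22 and 0.12. The 4 alternative VPS37 subunits of ESCRT-I lay on both sides of 0. VPS37A had a difference of 0.15, VPS37C of -0.05 and the dim VPS37D of -0.15. VPS37B read 6.95 without and 6.62 with the inhibitor in its brighter probe set (-0.33), and -0.26 in the other. In the list of other ESCRT genes 14 of 16 were higher, and none reached 1.5-fold. Of all named genes at or above the floor 53.7% were higher. The higher genes CHMP4B, CHMP2B, HGS and CHMP4A differed by only 0.01 to 0.02. The median of the list was 0.10, and 0.07 with the loess trend subtracted. CHMP2A (9.06 and 9.45, 0.39) and the cargo-binding STAM (0.34) had the highest values of that list, and CHMP6 (-0.22) and CHMP4C (7.97 and 7.65, -0.32) the lowest. The 4 VPS13 genes, which encode bridges for lipid transfer between organelles, differed by -0.14 (VPS13B) to 0.08 (VPS13C).

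Sorting nexins bind phosphoinositides on endosomes through a PX domain. Of 26, 16 were higher, and their median difference was 0.09. The direction went with the level. Of the 20 at or above the floor 16 were higher, and all 6 dimmer ones were lower. SNX18, which binds dynamin and shapes membrane tubules, read 4.49 without and 5.39 with the inhibitor, a difference of 0.90 or 1.87-fold higher, and it was above the floor with the inhibitor only. Its relatives were split, with SNX33 at 5.69 and 6.05 (0.36) and SNX9 at 8.37 and 8.26 (-0.12). SNX7 read 6.15 and 6.50 (0.35). The retromer-associated pairs SNX1 and SNX2 had differences of 0.33 and 0.12, and SNX6 and SNX5 had 0.16 and -0.11. SNX27, an adaptor that recycles receptors with retromer, had 0.24, and SNX3 had 0.16. SNX8 read 4.95 and 4.67 (-0.28) and SNX11 -0.13. SNX32, a paralogue of SNX5 and SNX6, read 3.47 without and 2.61 with the inhibitor (-0.86), and SNX20, which binds the adhesion receptor PSGL-1, read 3.93 and 3.17 (-0.76). The other 4 dim sorting nexins had differences between -0.36 and -0.15, and the other 8 at or above the floor between 0.01 and 0.28. SNX32 and SNX20 were below the floor on both arrays, where whether a signal is above background is unknown.

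Syntaxins act as target SNAREs of a given compartment. The 4 of endosomes, lysosomes and autophagosomes were all higher, namely STX8, STX7, STX17 (0.21), which acts in autophagosome fusion, and STX12 (0.02, and -0.01 with the loess trend subtracted). Of 4 syntaxins of the Golgi and the endoplasmic reticulum (ER), 3 were lower. STX10 of the trans-Golgi network read 7.28 and 6.96 (-0.31), STX6 had a difference of -0.10 and STX18 of -0.01, and STX5, the Golgi syntaxin, had 0.12. STX10 and STX6 also serve traffic between the trans-Golgi network and endosomes, so either group could hold them. The grouping by compartment was made with the values known. Among all named genes at or above the floor, 53.7% were higher. Of 6 plasma membrane syntaxins 3 were higher. STX1A, best known for exocytosis in neurons and endocrine cells, read 5.60 without and 4.86 with the inhibitor, a difference of -0.74 or 1.67-fold lower. STX11 and STX4 had differences of 0.21 each, STX3 of 0.00 and STX2 of -0.06. STX1A and STX8 were the only syntaxins whose difference exceeded 0.51. Of the 7 VAMPs, the vesicle SNAREs, 6 were higher. VAMP2 read 4.73 and 5.05 (0.31), VAMP3 8.43 and 8.69 (0.26) and VAMP5 6.20 and 6.40 (0.21), and VAMP1 had -0.12.

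**Figure D3:**
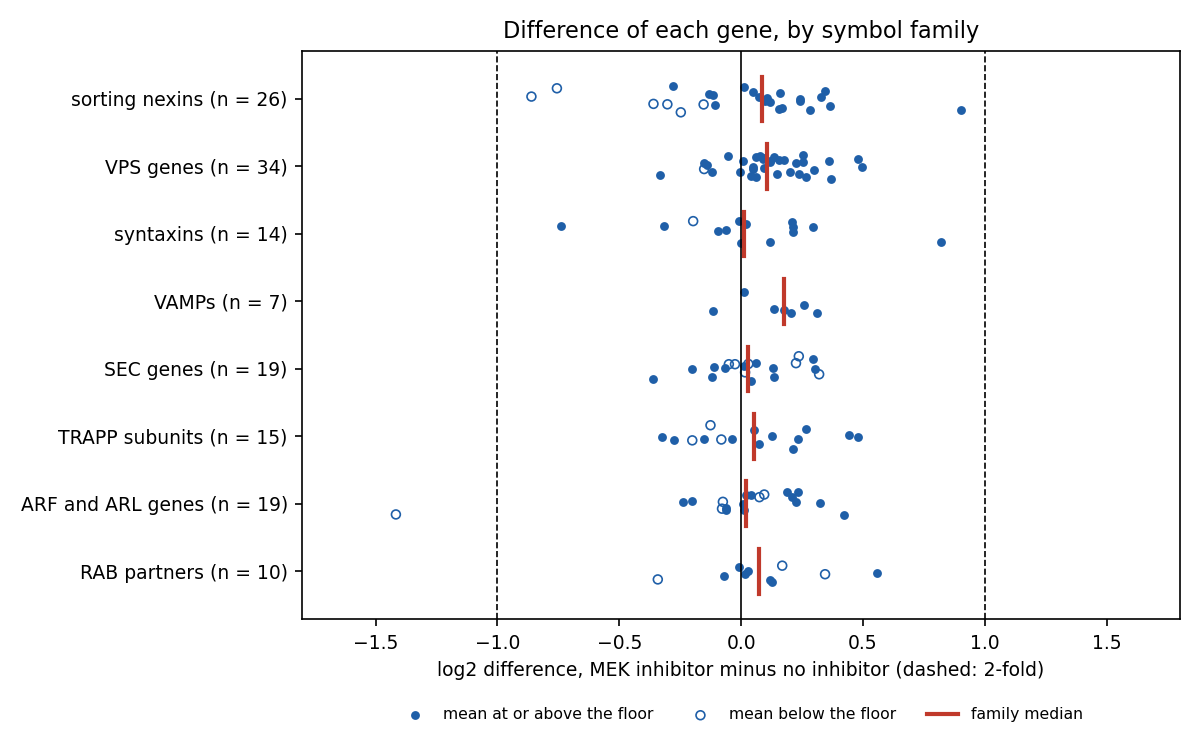
Log2 difference (MEK inhibitor minus no inhibitor) of each gene in 8 symbol families, with filled circles for genes whose mean is at or above the floor, open circles for dimmer genes, red bars for family medians and dashed lines at 2-fold. Family medians lie between 0.01 (syntaxins) and 0.18 (VAMPs), and ARL14 is the only gene past a dashed line.

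Genes of early secretion lay on both sides of 0. Of 19 SEC genes 12 were higher and 7 lower, and none reached 1.5-fold. Their median was 0.03. SEC22B, a SNARE between ER and Golgi, read 7.86 without and 8.17 with the inhibitor (0.30). The inner COPII coat genes SEC23A and SEC23B had differences of 0.29 and 0.14, while SEC16A, which organises ER exit sites, had -0.20. SEC11C, a catalytic subunit of signal peptidase, read 7.02 and 6.65 (-0.36), and its paralogue SEC11A had -0.12. The translocon genes differed little. SEC61A1 had 0.01, SEC61B 0.06, SEC62 -0.07 (0.00 in its other probe set) and SEC63 0.13. The dim SEC16B, SEC31B and SEC61A2 had 0.24, 0.23 and 0.32, and the 4 dim SEC14L genes for lipid transfer proteins lay between -0.05 and 0.03.

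TRAPP complexes tether vesicles and activate Rab GTPases at the ER, the Golgi and in autophagy. Of 15 subunits 8 were higher, with a median of 0.05. TRAPPC1 of the core read 8.86 without and 9.34 with the inhibitor (0.48), TRAPPC6A 4.68 and 5.12 (0.44) and TRAPPC5 7.32 and 7.58 (0.27). TRAPPC6B, the paralogue of TRAPPC6A, read 7.18 and 6.90 (-0.27). TRAPPC2L had -0.15. Of the TRAPPIII subunits TRAPPC12 read 6.18 and 5.85 (-0.32) and TRAPPC11 had 0.23. The other 8 TRAPP subunits lay between -0.20 and 0.21. All 15 differences were within the 0.51 of the probe set pairs. That value is for probe sets of 1 gene, so it does not judge the gap between different subunits. With a single array per condition, whether subunits differed in direction was not tested.

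Arf GTPases recruit coats and remodel lipids. ARF6, which acts at the plasma membrane and in recycling, read 9.25 without and 9.58 with the inhibitor (0.32). The Golgi Arf genes ARF1 and ARF4 differed by 0.01 and 0.02, and ARF5 had 0.19. ARF3 gave no settled direction, since its brighter probe set had -0.20 (7.70 and 7.49) and its other 0.44 (5.22 and 5.66). Among Arl partners ARL6IP4 had 0.23, and ARL2BP 0.23 and 0.74 in 2 probe sets, the second of them dim. The Rab partners had a median difference of 0.07, and 7 of 10 were higher. RAB11FIP4, a Rab11 effector of recycling endosomes, read 5.64 without and 6.20 with the inhibitor (0.56). The other Rab11 effectors had 0.13 (RAB11FIP1), 0.03 (RAB11FIP5), -0.01 (RAB11FIP2) and -0.34 (the dim RAB11FIP3). RAB3GAP2 and RAB3GAP1, which form the Rab3 GTPase-activating complex, had 0.12 and -0.07, and RAB5IF had 0.02. The dim RAB3IL1 and RAB3IP, which encode exchange factors for Rab GTPases, had 0.34 and 0.17. AP1AR had a difference of -0.29. RAB6D was dim, at 2.50 and 2.51. The read-through symbols ARL2-SNX15 (0.25) and STX16-NPEPL1 (0.15) can include signal of the genes they join. The 6 non-coding transcripts and pseudogenes lay between -0.29 and 0.26.

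Across the members the direction went with the level. Named genes were divided into 4 equal classes by the mean of both arrays. From the dimmest class to the brightest, 4 of 13, 9 of 19, 35 of 51 and 54 of 72 members were higher, which is 30.8%, 47.4%, 68.6% and 75%. Over all named genes the shares were 47.5%, 48.4%, 55.1% and 52.3%. In the brightest class the members' median difference was 0.09, against 0.01 over all its genes. Among genes at or above the floor 89 of 123 members were higher (72.4%), against 53.7% of all such genes, and 13 of the 32 dimmer members were higher, against 47.9% of all dimmer genes. The differences of members at or above the floor had a smaller spread (SD across genes 0.23, against 0.34 over all such genes). At or above the floor no member was past 2-fold, against 1.48% of all such genes in either direction. Genes on the same arrays are not independent replicates, so these shares describe the arrays only.

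**Figure D4:**
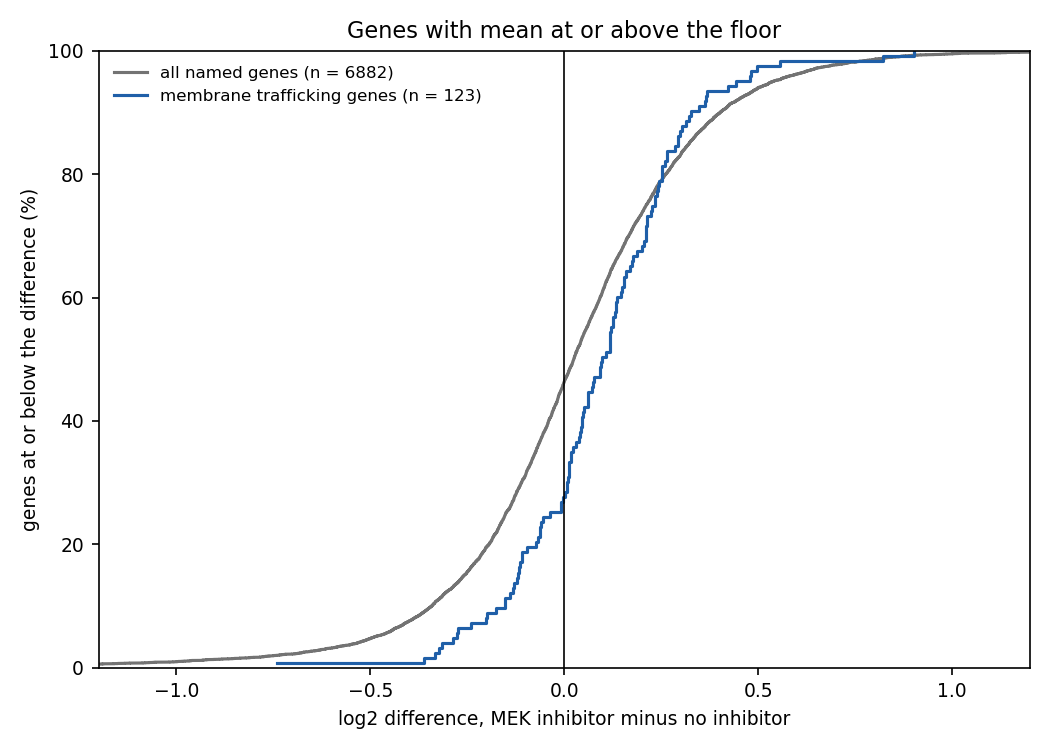
Cumulative share of genes (y axis, percent) at or below each log2 difference (x axis, MEK inhibitor minus no inhibitor) for 6882 named genes (grey) and 123 membrane trafficking genes (blue) with a mean at or above the floor; the x axis leaves out differences beyond 1.2 in either direction. The members' curve is steeper and crosses 0 lower, since 27.6% of members are not higher, against 46.3% of all genes.

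Other genes of these pathways, taken from lists and not from the symbol rule, gave the background to the members. Only listed genes with a symbol in the annotation could be read, so the lists are partial. For the Rab cycle 36 of 67 listed genes were read, and for clathrin coats and endocytosis 29 of 38. Over all named genes 50.8% were higher. The list of Rab regulators and effectors had 23 of 36 genes higher and a median of 0.11. MYO5B, a myosin that moves Rab11 vesicles, read 5.16 without and 5.69 with the inhibitor (0.52), and RUBCN, a regulator of autophagy and endosomes, had 0.48. MLPH, the Rab27 effector melanophilin, read 6.06 and 4.88, a difference of -1.19 or 2.28-fold lower, and the Rab GTPase-activating gene EVI5 had -0.18. The list of Arf exchange factors and GTPase-activating genes also held ARFIP1 and ARFIP2, which encode Arf-binding proteins. In it 12 of 23 were higher, with a median of 0.00. ARFGAP3 had 0.42, GIT2 0.30, ADAP2 -0.21 and ARFIP2 -0.28. PSD3, an Arf6 exchange factor named after its value was seen, read 4.76 and 3.69 (-1.07), below the floor on both arrays. MLPH and PSD3 were the only listed genes past 2-fold besides NBEA.

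Of the cargo receptors and exit genes between ER and Golgi, counted with the COPI subunit gene ARCN1, 15 of 23 were higher, with a median of 0.09. MCFD2, which carries coagulation factors out of the ER with LMAN1, read 6.67 without and 5.71 with the inhibitor (-0.96), and TMED3 5.77 and 5.18 (-0.59). ERGIC1 (0.50) and the retrieval receptor gene KDELR3 (0.45) were the highest with a mean at or above the floor. SAR1B, the GTPase that starts the COPII coat, had the highest difference of the list and is named after its value was seen. It read 4.24 without and 5.23 with the inhibitor (0.99 or 1.98-fold higher), and its mean of 4.73 was just below the floor. Tethers of the COG and exocyst complexes and others had 17 of 29 genes higher and a median of 0.09. EXOC6B read 7.14 and 7.84 (0.70) and COG5 had 0.52, while COG3 and COG2 had -0.33 and -0.55. Genes of the clathrin coat and endocytosis list were evenly divided, with 15 of 29 higher and a median of 0.00. The clathrin genes themselves were not among the 29. Endophilin A2 (SH3GL1) had 0.59 and DNM1, a dynamin, 0.54, whereas FCHO1 and HIP1R had -0.48 and -0.57. SNARE partners had 11 of 19 genes higher and a median of 0.03. STXBP2, which binds syntaxins in exocytosis, read 6.23 and 6.85 (0.61), STXBP3 had 0.31, NSF, the ATPase that recycles SNAREs, -0.17 and VTI1A -0.20.

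**Figure D5:**
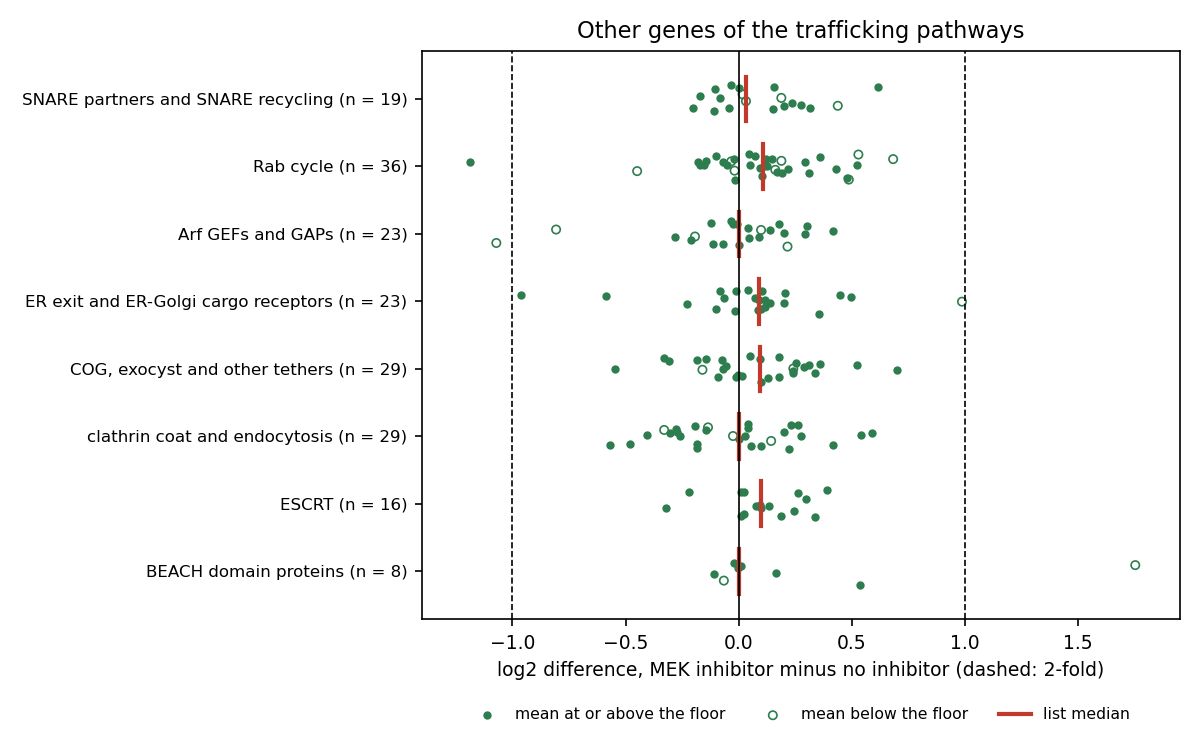
Log2 difference (MEK inhibitor minus no inhibitor) of each named gene in 8 lists of trafficking genes, with filled circles for genes whose mean is at or above the floor, open circles for dimmer genes, red bars for list medians and dashed lines at 2-fold; the BEACH list includes NBEA. List medians lie between 0.00 and 0.11, and NBEA, MLPH and PSD3 are the only genes past a dashed line.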

How the data were processed

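Total RNA of 2 samples, 1 per condition, was labelled with the GeneChip WT PLUS kit and read on Affymetrix whole-transcript arrays, per the labels' protocols. The authors deposited 1 log2 value per probe set and array. That the scale is log2 was inferred from their range, 1.16 to 13.4. Affymetrix Expression Console 1.3 is named in the submitters' processing notes, without its settings. Array medians were 3.46 with and 3.49 without the inhibitor, so values were used as deposited, and any difference in total RNA is not visible in them. Samples were grouped by their titles.

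Of 53617 probe sets, 16098 had 1 gene symbol, none had several, and 37519 are unnamed here. The 1287 MIR and SCARNA probe sets were left out. A gene with several probe sets was read from the brightest. Members were counted with no filter, because a filter on the higher value keeps dim genes that differ. With 1 array per group no p-value exists. Genes were called past 2-fold or 1.5-fold. Named members were NBEA, those past 1.5-fold at or above the floor, and the 3 highest and 3 lowest of each family at or above it. From each pathway list the 2 highest and 2 lowest at or above the floor were named. Other members are named to complete a complex, after their values were seen. Members and lists were chosen with earlier results of these data known. The alternatives were other scalings, filters, fold thresholds, averaged probe sets and shorter member lists. The calling of genes past 2-fold was checked on simulated data with shifts well beyond that threshold. This does not test differences as small as most of those reported here. Python 3.11.15, pandas 2.3.3, numpy 2.4.6, statsmodels 0.14.6 (loess fraction 0.3) and matplotlib 3.10.9 were used.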

Additional observations from a re-analysis of the deposited data

How the results depend on the processing

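No paired analysis was possible because there is a single array per condition, which also leaves none to omit. The count of members at least 2-fold higher was 1. It was 0 without NBEA and with a filter on the mean at the floor or at the 75th percentile, and 3 at a threshold of 1.5-fold. The count at least 2-fold lower was also 1, and it was 0 with either filter on the mean and at 3-fold, and 4 at 1.5-fold. NBEA and ARL14 both have means below the floor, so these filters remove them. The members' median difference of 0.07 stayed above 0 under all 8 alternatives run, from 0.04 with a loess trend subtracted to 0.10 with a filter on the higher value, each time above that of all named genes. Members above 0 numbered 102, and 94 to 104 under the 3 alternatives that keep all members. Of the family medians, that of the SEC genes moved most, from 0.03 to 0.14 over the 9 left without SEC23IP, SEC14L and translocon genes. The median of the sorting nexins went from 0.09 to 0.14 with the filter on the mean. Medians near 0 changed sign under the loess trend for syntaxins (-0.026) and the Arf regulator (-0.0051), endocytosis (-0.012) and BEACH (-0.040) lists. With the filter on the mean, that of SNARE partners changed sign (-0.00076). With probe sets averaged, ARF3 turned to 0.12 and VPS51 to 0.16. Under the loess trend 8 members turned from higher to lower, among them VAMP8 (-0.018) and RAB5IF (-0.0068), and STX3 and RAB6D, both at 0.00, turned with the median difference subtracted. No detection calls were used, so what a dim probe set can show is unknown.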
